A study of Drosophila melanogaster with 8 samples.

Results

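Eye-antennal discs that expressed vestigial (vg) were compared with discs that did not, in backgrounds without and with extra simjang (simj). The aim was to describe the changes seen with vg in both. All 8 arrays of the series entered: the 4 whose genotype carries UAS-vg and the 4 whose genotype does not. In wandering larvae of the last instar of Drosophila melanogaster, raised at room temperature, the driver ey-GAL4 expressed a pair of UAS transgenes in each of 4 genotypes, with 2 biological replicates each. The vg group carried UAS-vg and UAS-lacZ and was set against the lacZ group with UAS-lacZ and UAS-lacZ, and the vg_simj group carried UAS-vg and UAS-simj and was set against the simj group with UAS-simj and UAS-lacZ. All groups thus shared ey-GAL4 and the number of UAS transgenes, but in both backgrounds UAS-vg stood in the place of a UAS-lacZ. The presence of vg, the loss of that lacZ copy and any other genetic difference of the UAS-vg flies therefore cannot be told apart. Each sample pooled 100 pairs of discs, and 100 ng of total RNA was amplified and hybridised to 1 Affymetrix Drosophila array. ey-GAL4 is active from early in the eye part of the disc, so the pool mixed cells with and without the transgenes.

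The eye-antennal disc is the larval epithelium that forms the eye, the antenna and much of the head capsule, under retinal determination genes such as ey, so and eya. Vestigial is a cofactor with no DNA-binding domain of its own. It binds the TEAD-family protein Scalloped, and the pair activates wing genes in the wing disc and can turn cells of other discs towards wing. The product of simj is p66, a component of the NuRD complex, which remodels and deacetylates chromatin. The gene of Scalloped (sd) was not analysed here.

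Values are MAS5 signals, linear intensities scaled to a common mean on each array. Array medians lay between 36.5 and 46.3, and a signal near or below them could not be told from background. Between replicates the correlation of log2 signals across probe sets was 0.955 to 0.971, and between arrays that differed in vg it was 0.912 to 0.96. Of 18952 probe sets, 10205 passed the filter on low signals, and they stood for 8034 genes. Changes are on the log2(signal + 2.8) scale, which understates the fold of dim genes, and are the mean of vg minus lacZ and vg_simj minus simj with its standard error (SE). A change was called at a limma adjusted p under 0.05 over all 10205 probe sets, and called common to both backgrounds where, in addition, both vg-carrying arrays lay beyond both arrays without vg within each background. The retinal determination genes eya and so had mean signals of 2959 and 849.9 on the arrays with vg, against 2747 and 708 on those without. Genes of the labelled tissue were thus read with and without vg. Group means of the so gene were 986 in vg, 914 in lacZ, 714 in vg_simj and 503 in simj discs. These genes do not measure what share of each sample was disc.

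The transgene was read first. Signals of vg were 234 and 259 in vg discs, against 29.4 and 28 in lacZ discs, and 401 and 432 in vg_simj discs, against 16.6 and 22.2 in simj discs. All 4 arrays labelled with vg lay above all 4 others, which lay below their arrays' medians. The change was 3.62 ± 0.19 (SE; limma, adjusted p = 9.54e-05), with 4.25 in the background with simj and 2.98 in the background without it. A second vg probe set changed by 5.02 ± 0.34. Whether the probes lie within the transgene was not tested. The other transgene, simj, had signals of 595 and 679 in vg discs, against 479 and 727 in lacZ discs, and 1077 and 912 in vg_simj discs, against 1260.3 and 1063 in simj discs, so it followed the simj label and gave a change with vg of -0.06 ± 0.15 (limma, adjusted p = 0.858). The gene that the driver is taken from, ey, had signals of 541 and 579 in vg discs, against 629.6 and 466 in lacZ discs, and 551 and 682 in vg_simj discs, against 334 and 354 in simj discs, with a change of 0.44 ± 0.13 that did not pass the test (limma, adjusted p = 0.121).

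More of the called probe sets were lower with vg than higher. The main effect was called for 374 probe sets, 3.66% of those tested, with 99 higher (0.97%) and 275 lower (2.69%). Of these, 358 (3.51%) were common to both backgrounds, 94 higher (0.921%) and 264 lower (2.59%). The median change was 0.75 among the common rises and -1.27 among the common falls, against 0.03 over all probe sets tested. In 313 of the 358, all 4 arrays with vg lay beyond all 4 without, and without any test 1955 probe sets (19.2%) separated in the same direction within each background, with 9.79% higher and 9.37% lower. The count depended on single arrays: 134 main-effect calls were left without simj replicate 2, 163 without vg_simj replicate 2, 212 without lacZ replicate 1, 224 without vg_simj replicate 1, 224 without simj replicate 1 and 231 without vg replicate 2. None of the 358 changed direction in any of these fits, but the rule for common calls fixes this whichever array is left out.

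The comparisons of vg with lacZ and of vg_simj with simj share no array, so each could be set against the other. Fitted on its own 4 arrays, vg against lacZ gave 31 calls (0.304%), 12 higher and 19 lower. All 31 had the same sign in vg_simj against simj, against 67.6% of all probe sets. In the separate fit of vg_simj against simj, 22 of the 31 were called again, 71% against 3.46% of all probe sets. That second fit called 353 probe sets, of which 339 had the same sign in vg against lacZ and 22 were called there, 6.23% against 0.304% of all. Across all probe sets the changes in the backgrounds correlated at r = 0.58, a description over probe sets that share arrays and are not independent. Most of the common calls came from joining the backgrounds: in the fit of all 8 arrays, 213 of the 358 were called in neither background alone, where 79 (0.774%) were called in vg against lacZ and 133 (1.3%) in vg_simj against simj.

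**Figure D1:**
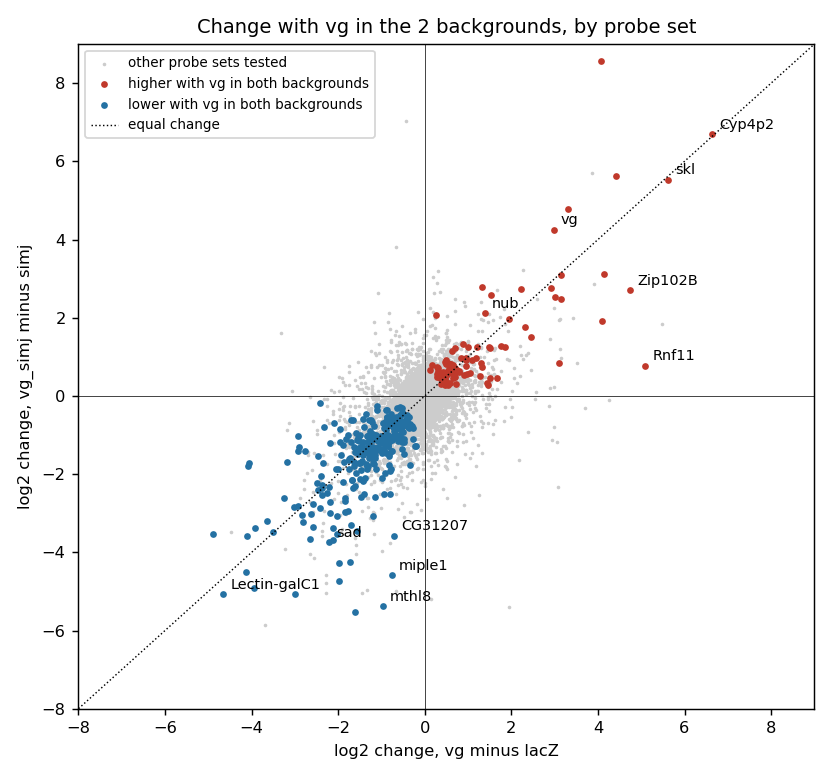
Log2 change with vg of every probe set tested, in vg minus lacZ (x axis) and in vg_simj minus simj (y axis). Red points are the 94 common rises, blue points the 264 common falls and grey points the other probe sets tested. The dotted line marks equal change: Cyp4p2 and skl lie on it at the upper right, and miple1, mthl8, CG31207 and Rnf11 lie off it.

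Among the common rises bright on all 4 arrays with vg, those of Cyp4p2 and skl were the largest, and their signals were near background without vg. Signals of Cyp4p2, a cytochrome P450 gene, were 1738 and 1771 in vg discs, against 18.9 and 11.7 in lacZ discs, and 1877 and 1825 in vg_simj discs, against 21.0 and 10.8 in simj discs. Signals of skl (sickle), an activator of cell death of the reaper family, were 1054 and 1239 in vg discs, against 18.7 and 22.6 in lacZ discs, and 1298 and 1708 in vg_simj discs, against 40.0 and 21.5 in simj discs. Both genes were thus bright on every array with vg and below the array median, or close to it, on every array without. Their changes were 6.66 ± 0.22 (SE; limma, adjusted p = 2e-05) and 5.57 ± 0.21 (limma, adjusted p = 3.22e-05). Since the signals without vg were at background, these sizes are uncertain. Signals of CG14852, chosen after its values were seen, were 671 and 12.1 in vg discs, against 5.3 and 1.6 in lacZ discs, and 3383 and 1697 in vg_simj discs, against 6.2 and 1.6 in simj discs. It was at background on every array without vg and also on vg replicate 2, and its change of 6.32 ± 1.05 (limma, adjusted p = 0.0188) exceeded that of skl.

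A neighbouring pair of genes, Zip102B and Rnf11, rose as well. Signals of Zip102B, a zinc transporter gene, were 939 and 988 in vg discs, against 44.6 and 24.8 in lacZ discs, and 1505 and 1485 in vg_simj discs, against 109 and 476 in simj discs. The arrays did not overlap, and the change was 3.72 ± 0.41 (SE; limma, adjusted p = 0.00342). Signals of Rnf11, a RING finger gene, were 2318 and 2067 in vg discs, against 87.1 and 43.5 in lacZ discs, and 6899 and 7013 in vg_simj discs, against 3298 and 5054 in simj discs. Here the simj arrays lay above the vg arrays, and the change was 0.77 with simj and 5.09 without it. A second Rnf11 probe set changed by 2.77 ± 0.21 overall (limma, adjusted p = 0.000589), with 2.53 with simj and 3.01 without it, so the probe sets of this gene disagree on the background with simj.

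Ilp8 rose in both backgrounds too. It encodes the insulin-like peptide that damaged or overgrown discs release and that delays pupariation, and its signals were 218 and 300.4 in vg discs, against 4.2 and 29.6 in lacZ discs, and 851 and 449 in vg_simj discs, against 165 and 157 in simj discs. Every array with vg lay above every array without, though simj discs lay above lacZ discs. The change was 3.01 ± 0.46 (SE; limma, adjusted p = 0.0129) and was not called without vg_simj replicate 1 or without simj replicate 2, with adjusted p up to 0.0792 over all alternatives. The remaining named rises were in the cuticle protein gene TwdlE (2.05 ± 0.19), the spliceosome gene ncm (1.36 ± 0.12), lncRNA:CR32027 (1.96 ± 0.15) and the genes CG6912 (3.12 ± 0.18), CG34247 (2.05 ± 0.19), CG15236 (4.04 ± 0.40) and CG32572 (3.62 ± 0.68). The first 6 of these held in each of the fits that left out 1 array, whereas CG32572 was lost without any array of the vg or vg_simj groups and without simj replicate 2.

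**Figure D2:**
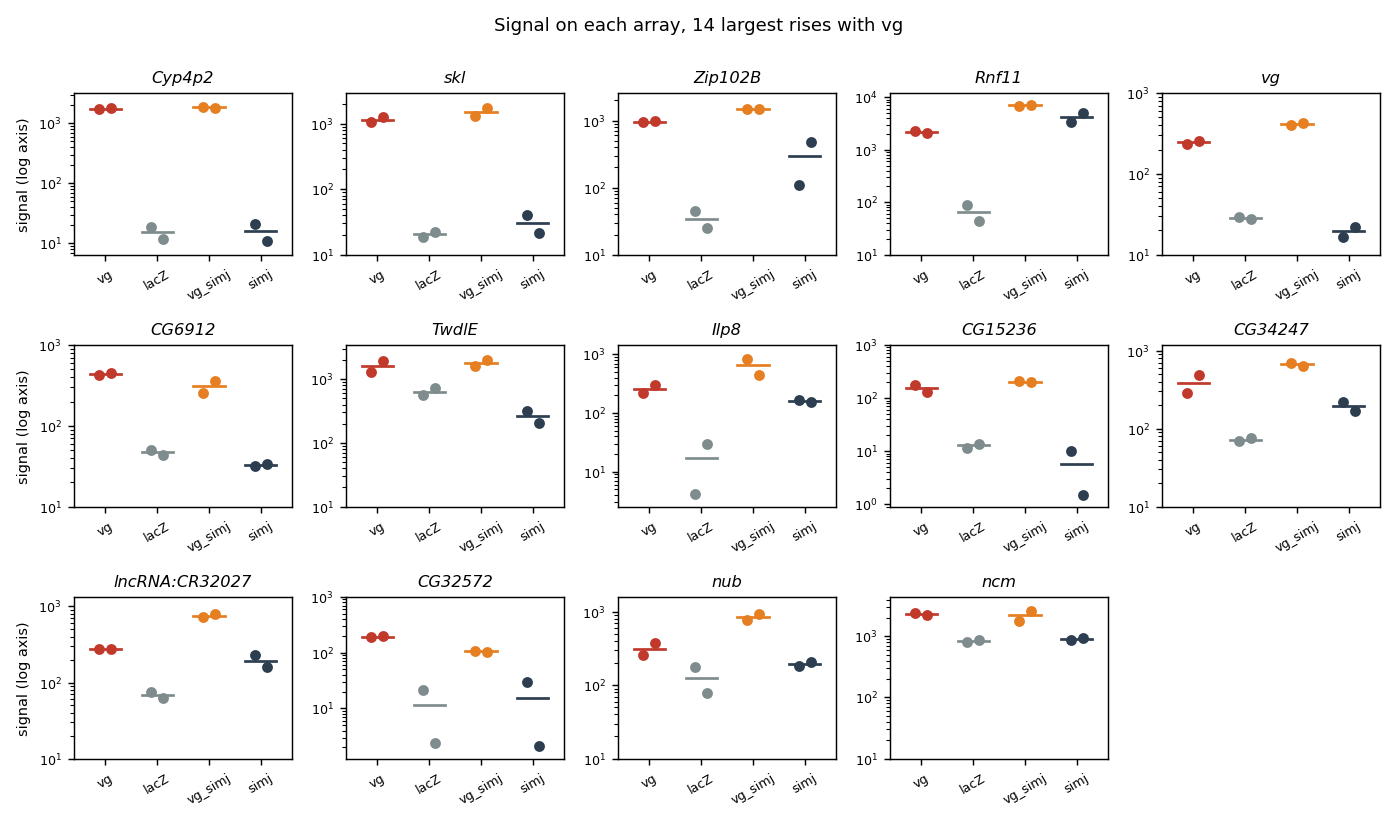
MAS5 signal on each array (points, log axis) and group mean (line) for the 14 largest common rises among genes above the array median on all 4 arrays with vg, in vg, lacZ, vg_simj and simj discs with 2 arrays each. Cyp4p2 and skl sit above 1000 on all 4 arrays with vg and at or below 40.0 on the 4 without, and Rnf11 is already high in simj discs.

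Genes listed as direct targets of Vestigial and Scalloped in the wing were set beside these. Whether the pair acts on them directly in these discs was not tested. Of 10 targets tested, 3 were called higher and 0 lower, against 0.983% and 2.64% of all 8034 genes, and the 3 were vg itself, nub and bi. The median change of the 10 was 0.43, against 0.03 over all genes. Of the 7 targets not called, 4 had changes above 0 and 3 below. Since vg is the transgene, the count without it was 2 of 9, with a median change of 0.27.

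Signals of nub, a POU-domain gene of the wing pouch and hinge, were 259 and 376 in vg discs, against 175 and 78.9 in lacZ discs, and 781 and 943 in vg_simj discs, against 185 and 210.1 in simj discs. The vg_simj arrays were the highest, and vg arrays lay above lacZ arrays and also above simj arrays. The change was 1.75 ± 0.25 (SE; limma, adjusted p = 0.0105), and it was not called without vg_simj replicate 2. Signals of bi, the T-box gene optomotor-blind that responds to Dpp in the wing, were 1550.4 and 1649 in vg discs, against 1264 and 1047 in lacZ discs, and 2379.9 and 2453 in vg_simj discs, against 1418 and 1234 in simj discs. The groups did not overlap, the change was 0.67 ± 0.10 (limma, adjusted p = 0.0108), and it was not called without vg_simj replicate 2 or without simj replicate 2. Without vg_simj replicate 2 the count of called targets was therefore 1 of 10.

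Other targets gave no call. The zinc-finger gene salr had a change of 0.59 ± 0.16 (limma, adjusted p = 0.0878), with signals of 257 and 229 in vg discs, against 213 and 157 in lacZ discs, and 215 and 254 in vg_simj discs, against 125 and 144 in simj discs. For Cyp310a1, a P450 gene of the wing disc, the change was 0.83 ± 0.28 (limma, adjusted p = 0.149), made up of 1.48 with simj and 0.18 without it. The wing margin gene ct and the central wing gene salm stood at -0.29 ± 0.20 and -0.03 ± 0.14, and the wing vein genes kni and knrl at 0.27 ± 0.15 and -0.15 ± 0.18. The intervein gene bs stood at 0.18 ± 0.10.

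Over the wider wing list, 4 of 37 genes were called higher and 1 lower, against 0.983% and 2.64% of all genes, with a median change of 0.21. At an unadjusted p under 0.05 (limma) there were 16 of the 37, vg among them, against 1783 of all 8034 genes. Without vg itself 3 of 36 were called higher. The 3 targets were joined by net, a vein gene, at 0.47 ± 0.10 (limma, adjusted p = 0.047), made up of 0.79 with simj and 0.16 without it. The fall was in vvl (ventral veins lacking), a POU gene of wing veins and trachea that is also known in the prothoracic gland. Its signals were 215 and 283 in vg discs, against 515 and 386 in lacZ discs, and 213 and 217 in vg_simj discs, against 537 and 525 in simj discs, a change of -1.07 ± 0.14 (limma, adjusted p = 0.00825). On this probe set, vvl signals on all 4 arrays with vg lay below those on the 4 without. A second vvl probe set, at -1.19 ± 0.49, overlapped between the arrays and was not called (limma, adjusted p = 0.214). The Dpp ligand gene dpp had a change of 0.37 ± 0.09 that missed the threshold (limma, adjusted p = 0.0569). The count of called wing genes was 1 without vg_simj replicate 2, 2 without simj replicate 2 and 3 or 4 without each of the other arrays.

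Few eye genes passed the test. None of the 11 retinal determination genes was called by limma (3 at an unadjusted p under 0.05), and their median change was 0.22, with 0.5 with simj and 0.04 without it. Optix, a Six-family gene of the eye field, had the smallest p at a change of 0.43 ± 0.10 (limma, adjusted p = 0.0551), while so stood at 0.30 ± 0.11 and tsh at -0.23 ± 0.13. Of 25 photoreceptor genes 1 was called, sev, the receptor tyrosine kinase gene of the R7 photoreceptor, against 2.64% of all genes called lower. At an unadjusted p under 0.05 (limma) there were 12 of the 25, against 1783 of all 8034 genes. Of the 25 changes 11 lay above 0 and 14 below, with a median of -0.06. Signals of sev were 212 and 186 in vg discs, against 436 and 484 in lacZ discs, and 40.5 and 60.5 in vg_simj discs, against 165 and 172 in simj discs. The vg arrays lay below the lacZ arrays and above the simj arrays, and the change was -1.46 ± 0.17 (SE; limma, adjusted p = 0.00384). The photoreceptor genes cpo, svp and klg had changes of -0.54 ± 0.12, -0.53 ± 0.13 and -0.71 ± 0.20 that did not pass the test, and the values were -0.97, -0.72 and -1.02 with simj, against -0.10, -0.34 and -0.40 without it. None of the 14 morphogenetic furrow and proneural genes was called by limma (5 at an unadjusted p under 0.05).

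Genes of ecdysone synthesis fell together. The steroid hormone ecdysone, which times larval molts and metamorphosis, is made from dietary sterol in the prothoracic cells of the ring gland, a gland that lies on the larval brain and is not part of the eye-antennal disc. Of 14 genes of that list tested, 10 were called lower and 0 higher, against 2.64% and 0.983% of all genes, with a median change of -2.37. The count was 10 or 11 of 14 in each fit that left out 1 array. In such pooled samples, fewer cells of a type and less RNA per cell cannot be told apart.

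Genes of sterol supply and the first steps came first. Signals of Start1, which encodes a sterol transfer protein, were 1591 and 1463 in vg discs, against 7139 and 8702 in lacZ discs, and 1057 and 1199 in vg_simj discs, against 7224 and 5908 in simj discs. The change was -2.45 ± 0.11 (SE; limma, adjusted p = 5.41e-05), and no array with vg reached any array without. Npc1a, a gene of intracellular sterol transport that many cells use, had signals of 2517 and 2713 in vg discs, against 6254 and 6793 in lacZ discs, and 1662 and 1985 in vg_simj discs, against 6273 and 6387 in simj discs, and the smallest called change of the list at -1.56 ± 0.09. Signals of nvd (neverland), the oxygenase that converts cholesterol to dehydrocholesterol, were 317 and 391 in vg discs, against 1240.1 and 1692 in lacZ discs, and 192 and 186 in vg_simj discs, against 1970.5 and 2498 in simj discs. The change of nvd was -2.78 ± 0.14 (limma, adjusted p = 9.1e-05). GstE14, a glutathione S-transferase gene needed for ecdysteroid synthesis, changed by -3.16 ± 0.30, the largest fall of the list.

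The middle and late enzymes fell by similar amounts. Signals of spok (spookier), a P450 of the so-called black box, were 2761 and 3164 in vg discs, against 7868 and 11744 in lacZ discs, and 1492 and 1162 in vg_simj discs, against 10608 and 16230.3 in simj discs. The black box dehydrogenase gene sro and the zinc-finger gene ouib, which activates spok, changed by -2.23 ± 0.21 and -2.67 ± 0.21. Signals of phtm (phantom), the first of the late hydroxylases, were 1066 and 1237 in vg discs, against 4710.3 and 5411 in lacZ discs, and 643 and 306 in vg_simj discs, against 5065 and 6416 in simj discs. The changes were -2.51 ± 0.18 for spok, -2.90 ± 0.22 for phtm, -2.04 ± 0.19 for the hydroxylase gene dib (disembodied) and -2.97 ± 0.14 for sad (shadow), which acts last (SE; limma, adjusted p = 0.000483, 0.000589, 0.00156 and 6.32e-05). Signals of sad were 1400 and 1173 in vg discs, against 5504 and 6394 in lacZ discs, and 579 and 388 in vg_simj discs, against 5984 and 6762 in simj discs. In sad, phtm, nvd and spok the vg_simj arrays were the lowest of all, and the fall was larger with simj (-3.74, -3.68, -3.53 and -3.31) than without (-2.21, -2.13, -2.03 and -1.70), a difference for which the interaction was not called (adjusted p = 0.517, 0.995, 0.548 and 0.764).

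The other 4 list members were not called. The enzyme gene shd (shade), which turns ecdysone into its active form in tissues outside the ring gland, had a change of 0.11 ± 0.44. The zinc-finger genes mld and woc stood at -0.11 ± 0.15 and 0.01 ± 0.11. The receptor gene tor, which receives the brain signal PTTH in the prothoracic gland, had signals of 45.1 and 5.5 in vg discs, against 104 and 103 in lacZ discs, and 38.1 and 6.6 in vg_simj discs, against 71.4 and 99.3 in simj discs. Its change of -2.28 ± 0.66 missed the threshold (limma, adjusted p = 0.11). Of 17 ecdysone response genes none was called by limma (4 at an unadjusted p under 0.05), with a median change of 0.16.

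**Figure D3:**
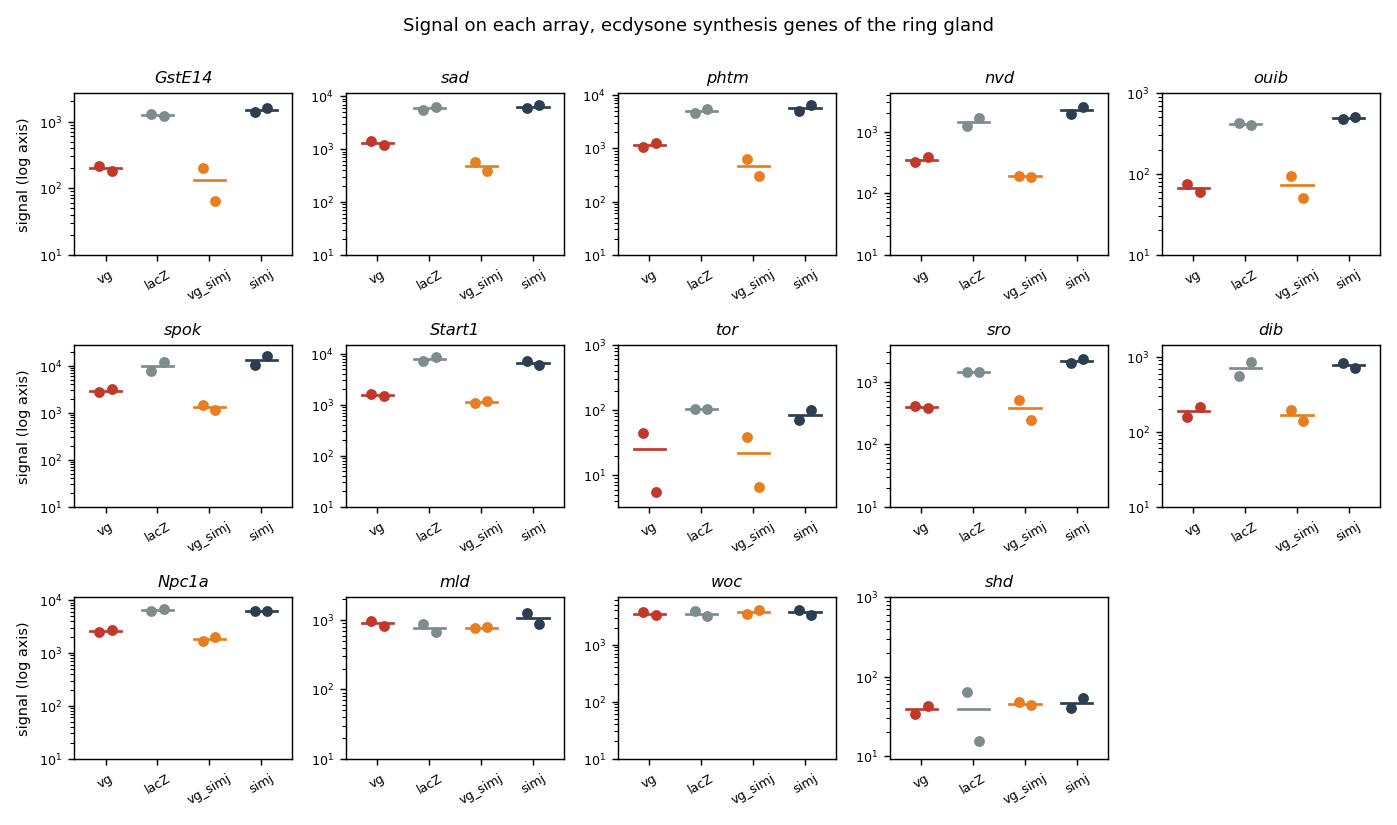
MAS5 signal on each array (points, log axis) and group mean (line) for the 14 ecdysone synthesis genes tested, in vg, lacZ, vg_simj and simj discs with 2 arrays each. In the 10 called genes the 4 arrays with vg sit below the 4 without, and mld, woc and shd show no such step.

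Besides these, jhamt and Akh, genes of other ring gland cells, were called lower. Signals of jhamt, the methyltransferase gene of juvenile hormone synthesis in the corpora allata, were 166 and 70.3 in vg discs, against 809 and 548 in lacZ discs, and 159 and 62.4 in vg_simj discs, against 1049 and 1026 in simj discs. Its change was -2.97 ± 0.35 (SE; limma, adjusted p = 0.00426). Akh, the adipokinetic hormone gene of the corpora cardiaca, was looked up after the values were seen. Signals of Akh were 166 and 183 in vg discs, against 726 and 376 in lacZ discs, and 341 and 66.3 in vg_simj discs, against 1903 and 1476 in simj discs, a change of -2.51 ± 0.46 (limma, adjusted p = 0.0279). In both genes every array with vg lay below every array without. The summed signal of the 14 ecdysone synthesis genes was 10617 to 15276 on the arrays with vg, against 41333 to 53652 on those without, and the part of the amount of ring gland tissue in the samples was not tested.

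Haemocyte genes formed the second group that fell. Haemocytes are the blood cells of the larva, some of which attach to discs, and of 23 of their genes tested 9 were called lower and 0 higher, against 2.64% and 0.983% of all genes, with a median change of -0.71. Signals of Hml (Hemolectin), a clotting factor gene of plasmatocytes, were 129.5 and 80.0 in vg discs, against 508 and 567 in lacZ discs, and 234 and 188 in vg_simj discs, against 800 and 1482 in simj discs. The change of Hml was -2.36 ± 0.23 (SE; limma, adjusted p = 0.00186), with no overlap between the arrays. Signals of srp (serpent), the GATA factor gene of blood and fat body, were 97.7 and 145 in vg discs, against 232 and 454 in lacZ discs, and 83.4 and 112 in vg_simj discs, against 434 and 452 in simj discs, a change of -1.80 ± 0.24. The surface protein gene He changed by -1.77 ± 0.24, the scavenger receptor gene Sr-CI by -2.0 ± 0.37, and the crystal cell prophenoloxidase genes PPO1 and PPO2 by -2.94 ± 0.59 and -2.18 ± 0.31. The collagen IV genes vkg and Col4a1, which neighbour each other and which haemocytes and fat body make, changed by -1.36 ± 0.19 and -1.12 ± 0.16.

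Lectin-galC1, a galactose-binding lectin gene in the haemocyte list, fell to background. Its signals were 3.1 and 28.6 in vg discs, against 470.3 and 246 in lacZ discs, and 38.7 and 13.1 in vg_simj discs, against 872 and 847 in simj discs. All 4 arrays with vg were near background for Lectin-galC1, and the change was -4.86 ± 0.55 (SE; limma, adjusted p = 0.00368), or -2.87 at a pseudocount of 64. Haemocyte genes that were not called included eater (-1.25 ± 0.27, limma adjusted p = 0.0509), the receptor gene NimC1 (0.36 ± 0.22) and the engulfment receptor genes crq and drpr (-0.08 ± 0.11 and -0.02 ± 0.10). The summed signal of the 23 genes was 16439 to 18673 on the arrays with vg, against 23094 to 29892 on those without. The count of 9 depended on a single array, being 4 without vg_simj replicate 2 and 6 to 10 without each of the others.

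Several genes of other cell type lists lay low beside them. Hand, a bHLH gene of heart and lymph gland cells, was the called member of the 15 muscle and myoblast genes, with signals of 74.4 and 79.1 in vg discs, against 227 and 348 in lacZ discs, and 129.8 and 71.4 in vg_simj discs, against 678 and 884 in simj discs. Its change was -2.40 ± 0.23 (SE; limma, adjusted p = 0.00174). The muscle genes Act87E, Mlp84B and sls had changes of -0.54 ± 0.14, -0.94 ± 0.24 and -1.06 ± 0.29 that were not called, although a second sls probe set was called at -1.08 ± 0.19. The median change of the muscle list was -0.88, and its summed signal was 16768 to 38215 on the arrays with vg, against 33055 to 81748 on those without. In the trachea list 1 of 13 was called, vvl as above. Single calls in lists of this size, beside 2.64% of all genes called lower, say nothing of the lists. In the muscle list, however, 11 changes lay below 0 and 4 above. There 10 of the 15 genes had an unadjusted p under 0.05 (limma), against 1783 of all 8034. Of the 14 glial genes, zyd, an ion exchanger gene of cortex glia, was called lower at -2.32 ± 0.33 (limma, adjusted p = 0.00967) and was lost without simj replicate 2. Salivary gland genes lay on the other side of 0, with none of 15 called by limma (2 at an unadjusted p under 0.05), a median change of 0.94 and a summed signal of 2475 to 17308 on the arrays with vg, against 1248 to 5126 on those without. The salivary sum was highest on vg_simj replicate 1 and vg replicate 1. None of the 7 fat body genes was called by limma (1 at an unadjusted p under 0.05), with a median change of 0.01. Of the 205 genes with a common fall (2.55% of those tested), 24 were in a cell type marker list. Of the 75 with a common rise (0.934%), 0 were, where 139 of all 8034 genes tested are such markers. So few of all genes are markers that 0 of 75 is near their share. The marker lists include the neuronal, glial and neuroblast lists, so not all of their genes mark a tissue other than the disc. The part of other tissues in the result was not tested. With vg replicate 1 and vg_simj replicate 1 both left out, a choice made after seeing the data, 11 of 14 ecdysone synthesis genes and 6 of 23 haemocyte genes were called lower and 1 of 10 direct targets higher.

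Outside these groups, the largest common falls at a pseudocount of 64 were in genes of mixed or unknown roles. Only genes above the array median on all 4 arrays without vg were ranked. At a pseudocount of 2.8 some dimmer genes changed more, such as CG4716 (-4.22 ± 0.65). Signals of cu (curled), a homologue of the deadenylase nocturnin, were 962 and 1274 in vg discs, against 5518 and 6469 in lacZ discs, and 1145 and 738 in vg_simj discs, against 6012 and 7440.4 in simj discs. Its change was -2.64 ± 0.17 (SE; limma, adjusted p = 0.000237), and the arrays with vg did not overlap those without. The genes CG14275, CG15919, CG34296, CG14075 and CG4408 changed by -3.48 ± 0.31, -4.03 ± 0.56, -3.13 ± 0.47, -2.99 ± 0.51 and -2.75 ± 0.19. Of these, CG34296 was lost without simj replicate 2, and CG14075 without any of vg replicate 2, lacZ replicate 1 or either simj array. Among 47 cytochrome P450 genes, 9 were called lower and 1 higher, against 2.64% and 0.983% of all genes, with a median change of -0.76. The rise was Cyp4p2, and 4 of the 9 falls were the ecdysone enzymes phtm, dib, sad and spok. The other 5 were Cyp6g2 (-2.82 ± 0.33), Cyp312a1 (-2.44 ± 0.53), Cyp9f2 (-1.35 ± 0.22), Cyp12e1 (-1.18 ± 0.22) and Cyp12c1 (-1.17 ± 0.18). The count of P450 falls was 5 without vg_simj replicate 2 or without simj replicate 2, and 15 without vg replicate 1.

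Neuronal genes showed few calls. Of 25 tested, 1 was called lower, near the 2.64% of all genes. It was Snap25, a SNARE gene of synaptic vesicle fusion, at -0.74 ± 0.15 (SE; limma, adjusted p = 0.0365). Signals of Snap25 were 122 and 108 in vg discs, against 288 and 218 in lacZ discs, and 251 and 213 in vg_simj discs, against 299.8 and 298 in simj discs. Among the fits that left out 1 array it was called only without vg replicate 1 or lacZ replicate 2. The list's median change was -0.35, and 18 of the 25 changes lay below 0, against 3619 of all 8034 genes. The median was -0.71 with simj and 0.1 without it, a difference between backgrounds that was not tested for the list. The axonal genes Ank2, futsch and nrv3 had changes of -1.80, -1.06 and -0.85 with simj, against 0.14, 0.09 and 0.10 without it, and none had a called main effect. In the list of 16 neuroblast and brain genes, nerfin-1, a zinc-finger gene of early neurons, was called lower at -1.05 ± 0.20 (limma, adjusted p = 0.0326). The change of nerfin-1 was -1.76 with simj and -0.34 without it, and the interaction was not called (limma, adjusted p = 0.995). Without simj its signals were 517 and 759 in vg discs, against 772 and 821 in lacZ discs. The call was lost without any of 6 arrays, held only without vg replicate 2 or vg_simj replicate 2.

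Where signalling genes were called, the changes were small. In the Notch list 2 of 18 rose, against 0.983% of all genes called higher, the neighbouring Bearded-family genes Brd and Tom, which inhibit Notch ligand activity. Signals of Brd were 4130.2 and 3992 in vg discs, against 3239.5 and 3317 in lacZ discs, and 3163 and 3553 in vg_simj discs, against 2118 and 1965 in simj discs. The change was 0.51 ± 0.08 for Brd and 0.39 ± 0.07 for Tom (SE; limma, adjusted p = 0.0136 and 0.0311). With simj the changes were 0.72 for Brd and 0.67 for Tom, against 0.31 and 0.11 without it. For Brd the groups overlapped across backgrounds, since 1 vg_simj array lay below both lacZ arrays. In the Hedgehog list 1 of 15 rose, the co-receptor gene ihog at 0.47 ± 0.10 (limma, adjusted p = 0.0477), while its paralogue boi at 0.50 ± 0.11 missed the threshold (limma, adjusted p = 0.0535). Of 19 antennal and leg genes 1 rose, the homeobox gene al (aristaless), with signals of 554 and 552 in vg discs, against 377 and 361 in lacZ discs, and 523 and 704 in vg_simj discs, against 343 and 342 in simj discs. Of the 23 cell cycle and replication genes 1 rose, the mitotic kinase gene aurB at 0.51 ± 0.10. Changes lay above 0 in 15 of the 18 Notch, 14 of the 15 Hedgehog, 12 of the 19 antennal and leg and 21 of the 23 cell cycle genes. Over all 8034 genes 4415 did so. Single calls in lists of this size, beside 0.983% of all genes called higher, say nothing of the lists. Among these small rises, aurB was lost in every fit that left out 1 array, ihog in all but that without simj replicate 1, Tom in all but that without lacZ replicate 2, al without vg replicate 2, vg_simj replicate 2, lacZ replicate 1 or either simj array, and Brd without lacZ replicate 1 or simj replicate 2.

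Cell death and damage genes moved in both directions. Of 13 cell death genes 1 rose, skl, and 2 fell, egr and scaf, against 0.983% and 2.64% of all genes. Signals of egr (eiger), the TNF ligand gene that activates JNK signalling, were 653 and 601 in vg discs, against 926 and 939 in lacZ discs, and 366 and 380.1 in vg_simj discs, against 796 and 840.3 in simj discs. The change of egr was -0.85 ± 0.09 (SE; limma, adjusted p = 0.0028), with all arrays with vg below all others. A second, dimmer egr probe set stood at -0.55 ± 0.39 and was not called (limma, adjusted p = 0.47). The secreted protease homologue gene scaf, known as a JNK target, changed by -0.94 ± 0.18 (limma, adjusted p = 0.0323) and was lost without any array of the vg, vg_simj or simj groups. In the JNK and disc damage list of 21 the called genes were Ilp8, which rose, and egr. The JNK phosphatase gene puc stood at 0.21 ± 0.08. No call was made by limma among the Wingless (0 of 7 at an unadjusted p under 0.05), Dpp and Activin (4 of 20), EGF receptor (1 of 14), Hippo and Fat (1 of 17), Hox (1 of 3), innate immunity (5 of 19) and NuRD (0 of 5) genes, with list medians of 0.16, 0.09, 0.14, 0.1, 0.27, 0.01 and 0.09. Over all 8034 genes, 1783 had an unadjusted p under 0.05. The Hox genes Scr, pb and Dfd had changes of 0.51 ± 0.16, 0.27 ± 0.31 and -0.08 ± 0.12.

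**Figure D4:**
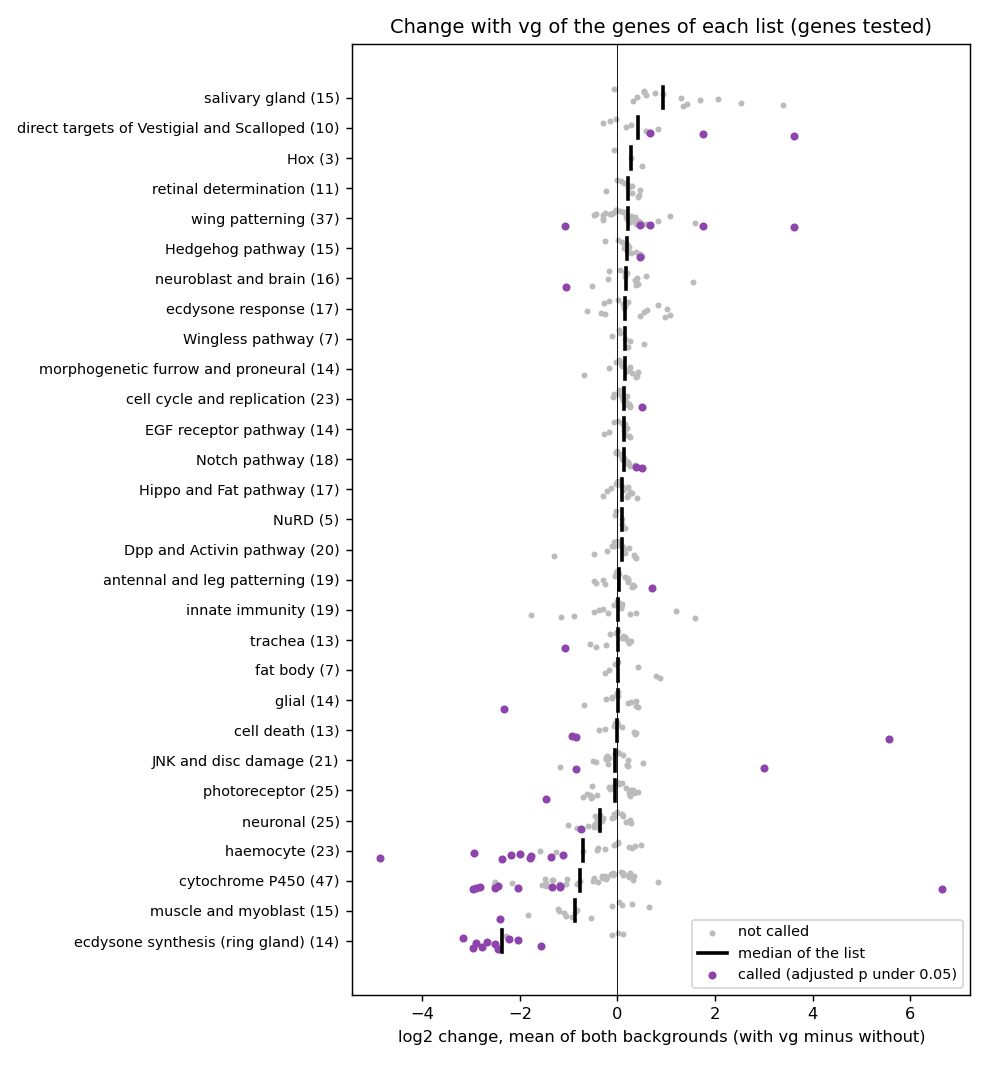
Log2 change with vg, as the mean of both backgrounds, of each gene in 29 lists, with the number of genes tested in brackets. Purple points are called genes, grey points genes not called, and black bars the list medians. The ecdysone synthesis list stands lowest at -2.37 and the salivary gland list highest at 0.94, where no gene was called.

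Few probe sets were called for a vg change that differed between backgrounds. The interaction, the change with simj minus the change without it, was called for 5 probe sets, 0.049% of those tested. All 5 met the rule for a common main effect, which asks for array order within each background and not for a similar size. At an unadjusted p under 0.05 it was passed by 64 of the 358 common probe sets and 404 of all 10205. Among the 264 common falls 161 were larger with simj, as were 51 of the 94 common rises. Signals of miple1, a midkine-family growth factor gene, were 547 and 609 in vg discs, against 958 and 1005 in lacZ discs, and 14.2 and 13.1 in vg_simj discs, against 422 and 363 in simj discs. The vg_simj arrays alone were at background, and the change was -4.58 with simj and -0.76 without it. Signals of mthl8, a methuselah-like receptor gene, were 235 and 198 in vg discs, against 414 and 438 in lacZ discs, and 5.1 and 3.5 in vg_simj discs, against 317 and 267 in simj discs, with the vg_simj arrays again the lowest. Signals of CG31207 were 270.5 and 274 in vg discs, against 454 and 435 in lacZ discs, and 27.2 and 26.6 in vg_simj discs, against 333 and 366 in simj discs. A second mthl8 probe set changed by -2.59 with simj and -1.15 without it. The other calls were the first Rnf11 probe set, described above, and a probe set that has no single gene symbol. Its signals were 666 and 519 in vg discs, against 2908 and 3413 in lacZ discs, and 661 and 636 in vg_simj discs, against 703 and 765 in simj discs, so lacZ discs alone were high. The number of such calls was 0 without simj replicate 1 (313 at an unadjusted p under 0.05), 1 without simj replicate 2, 2 without either vg_simj array or lacZ replicate 2, 3 without vg replicate 2 and 10 without lacZ replicate 1.

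**Figure D5:**
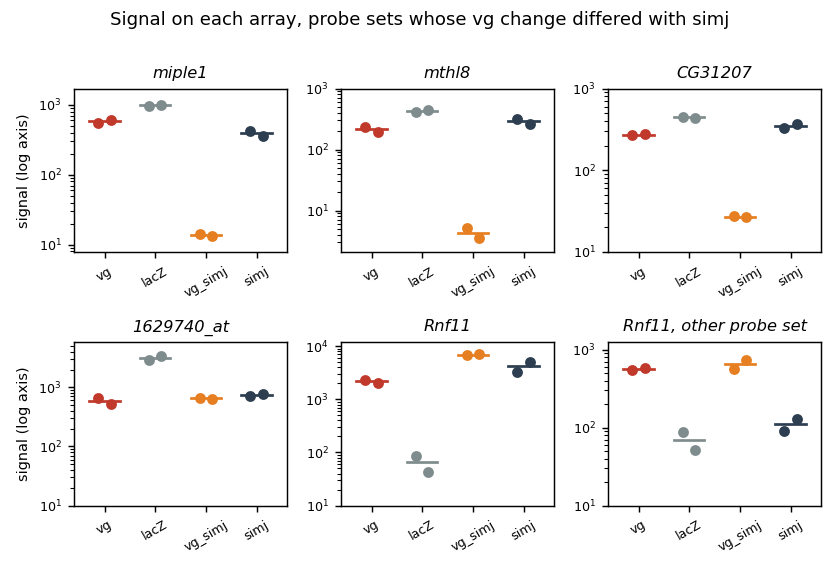
MAS5 signal on each array (points, log axis) and group mean (line) for the 5 probe sets called for the interaction and for the second Rnf11 probe set, in vg, lacZ, vg_simj and simj discs with 2 arrays each. For miple1, mthl8 and CG31207 the 2 vg_simj arrays sit far below the other 6, and the second Rnf11 probe set rises in both backgrounds.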

How the data were processed

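Total RNA of 8 pooled disc samples was measured on 8 Affymetrix arrays, 2 per group, and that number limits the precision of every value. The deposited values are linear intensities, 1 per probe set and array, made with MAS5 per the submitters' processing notes, with version and settings not given in the sources used here. Trimmed of 2% at either end, every array averaged 500.0, tested on the files. Control probe sets (183) were removed, and the filter asked for a signal above the array median on 2 or more arrays. Of all probe sets 13647 had 1 gene symbol in the platform annotation, 402 had several and 4903 none. Symbols were updated through RefSeq's Release 6 gene table, which lacked 103 of them, and the listed name phm was matched to its phtm.

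Log2(signal + 2.8), with a pseudocount at the 10th percentile of the values, entered a model of group means over the 8 arrays in limma 3.58.1 in R 4.3.3 and an intensity trend (4 residual and 3.84 prior degrees of freedom, two-sided, Benjamini-Hochberg within a contrast). An exact permutation of vg within simj status has 36 regroupings and a smallest two-sided p of 0.0556, so calls rest on spread shared across probe sets. Alternatives were 0.1 and 4 times the pseudocount and 64, no filter and one above the 75th percentile, quantile normalization, median centring, no trend, an additive model, 1 probe set per gene, the replicate number as a block, and each array left out. For lists, the probe set with the highest mean stood for a gene. The code was tested on simulated data.

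Named were vg, simj and ey, the 14 largest rises and 14 largest falls common to both backgrounds (ranked at a pseudocount of 64, among genes with 1 symbol, 1 probe set per gene, whose higher side exceeded the array median on all 4 arrays), the 4 smallest p of each list with a call and of the target, wing, retinal, photoreceptor and Hox lists, and interaction calls, up to 8. Other members of the target, ecdysone synthesis, haemocyte and P450 lists are given to account for those lists, and net, dpp, puc, CG14852 and Akh were chosen after their values were seen. The comparison and the lists were chosen with earlier results of these data known. Promoter sequences were not analysed here. Samples labelled as biological replicates were treated as such.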

Additional observations from a re-analysis of the deposited data

Results flagged for a closer look

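The change with vg differed between backgrounds for 5 probe sets in limma's interaction test. In each sentence the difference is the log2 change with simj minus that without it.

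For miple1 the difference was -3.82 (SE 0.24, adjusted p = 0.00356), with a change of -4.58 in vg_simj against simj and -0.76 in vg against lacZ. For mthl8 it was -4.41 (SE 0.35, adjusted p = 0.00931), with -5.38 in vg_simj against simj and -0.97 in vg against lacZ, and the vg_simj arrays read 5.1 and 3.5, under every array's median. For CG31207 it was -2.87 (SE 0.25, adjusted p = 0.0127), with -3.57 in vg_simj against simj and -0.70 in vg against lacZ. For Rnf11 it was -4.32 (SE 0.44, adjusted p = 0.0222), with 0.77 in vg_simj against simj and 5.09 in vg against lacZ, whereas its second probe set had an interaction p of 0.283 before adjustment. For the probe set without a single gene symbol it was 2.24 (SE 0.23, adjusted p = 0.0222), with -0.18 in vg_simj against simj and -2.42 in vg against lacZ. With 2 arrays per group, no single array could be tested as standing apart from its group.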

How the results depend on the processing

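The main-effect and common calls were recomputed under 11 other settings and without each of the 8 arrays in turn, the interaction likewise except under the additive model, which has no such term, and the calls repeated between backgrounds under 3 settings. The 374 main-effect calls and 358 common calls became 231 and 218 with the filter above the 75th percentile, which tests fewer probe sets, and 231 and 223 without an intensity trend, and the cause was not tested for the trend. With both first vg arrays left out, chosen after seeing the data, they were 235 and 234. Leaving out 1 array gave 134 to 494 main-effect calls, 129 to 481 common calls and 0 to 10 interaction calls, against 5. The interaction calls were 2 with the stricter filter and 0 with both first vg arrays left out, where 480 probe sets had an unadjusted p under 0.05. The 22 calls repeated between separate fits became 46 in 1 fit of all 8 arrays, which shares the spread over more arrays. With the replicate block the main effect had 630 calls. Deviations of same-numbered arrays from their group means correlated at 0.06 to 0.40 over the 6 pairs of groups and 4 of the 6 exceeded 0.1. The labels state no shared day or culture, so whether same-numbered samples share a batch is not known, and the fit without the block was kept. No common call changed direction under any setting. The rule for common calls fixes this in advance for all but quantile normalization and median centring. The share of lower calls, 73.5%, was 66.0% after median centring and 84.7% with both first vg arrays left out. Of the 50 named genes or probe sets called, 27 were called under every setting that tested them and 23 were lost under 1 or more, and of the 40 not called, 9 were gained under 1 or more. The additive model lost miple1, mthl8, Rnf11 and the probe set without a single gene symbol, which have interaction calls. The stricter filter lost Lectin-galC1 and nerfin-1, and leaving out both first vg arrays lost nub, bi, Ilp8, srp, vvl, CG15236, CG32572, aurB, Brd, Tom, ihog, nerfin-1, scaf and Snap25. Signals near the array median limit all changes of dim genes: at a pseudocount of 64, 22 common rises and 128 common falls exceeded 2-fold, against 35 and 178 at 2.8.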

Other observations

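Further common falls lay outside the lists, in genes picked after their values were seen. Oatp74D, which encodes the transporter that brings ecdysone into cells, had signals of 1944 and 2617 in vg discs, against 5355 and 4126 in lacZ discs, and 2225 and 2272 in vg_simj discs, against 4634 and 5182 in simj discs, a log2 change of -1.09 ± 0.13 (SE; limma, adjusted p = 0.00394). The lipid genes FASN3, a fatty acid synthase, and spidey, a ketoacyl and steroid dehydrogenase, changed by -2.59 ± 0.22 and -1.37 ± 0.13 (limma, adjusted p = 0.0011 and 0.00174). Amnionless, an endocytic receptor gene known from nephrocytes, changed by -4.31 ± 0.45 (limma, adjusted p = 0.0028). In these 4 genes no array with vg overlapped those without.

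Of the smaller common rises, Sf3b5 and Fmr1 were likewise picked after their values were seen. Sf3b5, a splicing factor gene, had signals of 2788 and 2672 in vg discs, against 1782 and 1729 in lacZ discs, and 2716 and 2383 in vg_simj discs, against 1588 and 1524 in simj discs, a change of 0.67 ± 0.08 (limma, adjusted p = 0.00507). Fmr1, the homologue of the fragile X protein gene, had a probe set that changed by 1.08 ± 0.13 (limma, adjusted p = 0.00568) and a second at 0.10 ± 0.28, which was not called, so they disagree.

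Some changed genes were neighbours in the gene order of RefSeq's Release 6 assembly. Here a gene counts if any of its probe sets had a common change, so the totals exceed those over 1 probe set per gene. Of 76 genes with a common rise that could be placed, 8 had a neighbour that also rose, 10.5% against 1.29% of all 7980 tested genes, and of 211 with a common fall 24 had a neighbour that also fell, 11.4% against 2.94%. The rising pairs were Rnf11 with Zip102B, Brd with Tom, CG11594 with Gr64a and CG6583 with crok. The falling pairs included Col4a1 with vkg, nvd with Snap25, sad with CG6962 and Hml with CG8745. Whether neighbouring probe sets share probes was not tested.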
